A study of Mus musculus with 6 samples.

Results

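Striatal projection neurons, also called medium spiny neurons, are the GABAergic output cells of the striatum, which lies beneath the frontal cortex. One population sends axons along the direct pathway and makes the tachykinin precursor Tac1, and the other follows the indirect pathway and makes the enkephalin precursor Penk together with the receptors Drd2, Adora2a and Gpr6. Dopamine and adenosine receptors of both populations act on cyclic AMP and protein kinase A, and Rgs9, Pde10a and Ppp1r1b shape that signal. Cortical neurons use several of these genes too: Penk and Tac1 are made by subsets of cortical interneurons, and Pde10a and Ppp1r1b by some cortical cells.

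The genes described here are the symbols of 9 striatal projection neuron genes (Adora2a, Drd1, Drd2, Penk, Gpr6, Rgs9, Tac1, Pde10a and Ppp1r1b) looked up in a table of raw counts for 22000 gene symbols. They were chosen by their CPM values in these same libraries, because their levels varied between mice within both groups, so that variation is described without a test. Of the 9 symbols, 8 had a row. Drd1, a dopamine receptor gene of the direct pathway, had none under this name or a RefSeq synonym, and its expression is not analysed here. A row named Drd, which is neither a RefSeq nor a GENCODE symbol, was not taken for it.

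The counts come from RNA-seq of the prefrontal cortex (PFC) of male C57BL/6N mice at 9 weeks of age, with 3 control mice, 3 early life stress (ELS) mice and 1 library per mouse. ELS mice lived alone under a filter cap from weaning, while controls shared a cage of 4 males, and each mouse stayed in its housing until dissection. The study asked how ELS changes gene expression in the PFC. Total counts ran from 28405795 to 35241743 per mouse, and the 3 ELS libraries were the deepest. The excitatory cortical neuron gene Slc17a7 was at 1480 to 1700 CPM (counts scaled to library size, with TMM factors) in all 6 mice. Testing took in the 13185 genes that reached 1 CPM, before TMM scaling, in each mouse of either group. All 8 members with a row were among them. Calls needed an adjusted p (Benjamini-Hochberg) under 0.05 together with a log2 fold change beyond 0.3 in either direction.

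Control mouse 3 and ELS mouse 1 stood apart from the other mice in these genes, and the group comparisons are therefore given with and without each of them. All 8 members were higher in these 2 mice than in any of the other 4, against 14% of all genes tested. This share only describes the members, which were picked for such variation. In bulk tissue, more cells of a type and more RNA per cell cannot be told apart.

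The promoters are shown because the receptors among the members signal through cyclic AMP. The cyclic AMP response element, a binding site of CREB, has the core TGACG and in full the palindrome TGACGTCA. RefSeq promoters (GRCm38.p6) of Drd1, Drd2, Gpr6, Rgs9, Tac1 and Pde10a were used, and those of Adora2a, Penk and Ppp1r1b are not analysed here. In the 250 bases before the start site, read on both strands, the core was found for Gpr6 and Tac1, and in 17.8% of all 32851 promoters. Gpr6 held the full palindrome, found in 1.55% of promoters, which counts as 2 overlapping cores. Capitals mark the core in the sequences below, and the Drd2 stretch holds none.
Gpr6 (chr10:41072291-41072540, minus strand): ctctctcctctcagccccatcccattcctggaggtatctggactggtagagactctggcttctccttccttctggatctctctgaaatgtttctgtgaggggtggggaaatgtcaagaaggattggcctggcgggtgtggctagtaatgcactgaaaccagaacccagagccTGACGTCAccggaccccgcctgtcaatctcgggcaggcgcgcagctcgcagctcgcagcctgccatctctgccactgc
Drd2 (chr9:49340153-49340402, plus strand): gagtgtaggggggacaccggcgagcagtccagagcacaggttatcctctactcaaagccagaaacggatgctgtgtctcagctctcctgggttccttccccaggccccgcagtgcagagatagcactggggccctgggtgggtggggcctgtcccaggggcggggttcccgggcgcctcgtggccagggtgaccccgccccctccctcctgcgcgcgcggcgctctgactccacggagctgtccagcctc
The match for Gpr6 begins 78 bases before the start site, and those for Tac1 begin 197 and 43 bases before it. The Tac1 window (chr6:7554811-7555060, plus strand) is not printed because the GENCODE gene begins inside it, at 7554879. The windows of Drd1 and Pde10a also overlap or lie inside their GENCODE genes, at starts other than the outermost one. Such matches describe letters and not sites in use, and a link to the variation between mice was not tested.

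The receptors came first in how far they varied. Adora2a, the adenosine receptor of the indirect pathway, lies on chromosome 10 from 75316877 to 75334784 (plus strand, GRCm38). It had 5.04, 5.17 and 17.8 CPM in the controls, listed as mouse 1, 2 and 3, and 18.8, 6.98 and 10.1 CPM in the ELS mice. The highest mouse was 3.73-fold above the lowest, and the groups overlapped over almost their whole range. Its log2 fold change in ELS mice was 0.36 (standard error 0.433), which is inside the spread between mice (edgeR quasi-likelihood test, adjusted p = 1 for this and each other member).

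Drd2, the dopamine receptor that lowers cyclic AMP, lies on chromosome 9 from 49340627 to 49408177 (plus strand). It had 3.38, 4.43 and 10.5 CPM in control mice and 11.6, 4.29 and 4.96 CPM in ELS mice. The same 2 mice were high, at more than 2 times any other, and the mice in between changed places, with control mouse 2 above ELS mouse 2. The log2 fold change was 0.19 (standard error 0.405).

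Gpr6, an orphan receptor that raises cyclic AMP with no ligand added, lies on chromosome 10 from 41069977 to 41072285 (minus strand). It had 2.01, 1.77 and 4.44 CPM in control mice and 5.85, 3.15 and 2.45 CPM in ELS mice. ELS mouse 1 was 3.30-fold above control mouse 2, where the gene had its lowest count of 50 reads and a counting error of 14.1%. Its log2 fold change of 0.48 (standard error 0.36) was the largest of the members.

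Among the peptide precursors, Penk (chromosome 4 from 4133531 to 4138819, minus strand) had 41.5, 44.2 and 96.4 CPM in control mice and 99.3, 62.9 and 68.9 CPM in ELS mice. Control mice 1 and 2 were below every ELS mouse, and control mouse 3 was above ELS mice 2 and 3. The log2 fold change was 0.34 (standard error 0.263). On the other strand, noncoding A830012C17Rik covers 14.3% of the Penk exons, and the strand setting of the counting is not given in the sources used here.

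Tac1, the precursor of substance P (chromosome 6 from 7554879 to 7565834, plus strand), had 18.8, 17 and 35.6 CPM in control mice and 34.2, 21.8 and 21 CPM in ELS mice. Here control mouse 3 was the highest, 2.09-fold above control mouse 2. The log2 fold change was 0.11 (standard error 0.244).

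Of the genes that act downstream of the receptors, Rgs9, which speeds the shutdown of G proteins (chromosome 11 from 109225355 to 109298129, minus strand), had 12.2, 13.5 and 24.7 CPM in control mice and 25.4, 13.5 and 17.2 CPM in ELS mice. Pde10a, the phosphodiesterase that degrades cyclic AMP and cyclic GMP in these neurons (chromosome 17 from 8525372 to 8986648, plus strand), had 54.3, 65.3 and 89.8 CPM in control mice and 98.1, 72.4 and 69.9 CPM in ELS mice. Ppp1r1b, whose product inhibits protein phosphatase 1 once protein kinase A has phosphorylated it (chromosome 11 from 98348404 to 98357796, plus strand), had 101, 108 and 166 CPM in control mice and 145, 108 and 116 CPM in ELS mice. All 3 again had their 2 highest values in control mouse 3 and ELS mouse 1, but over a narrower span, 2.08-fold for Rgs9, 1.81-fold for Pde10a and 1.64-fold for Ppp1r1b. The log2 fold changes were 0.16 (standard error 0.251), 0.20 (standard error 0.163) and -0.02 (standard error 0.161). On the other strand, noncoding 1700003D09Rik covers 15.7% of the Ppp1r1b exons.

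**Figure D1:**
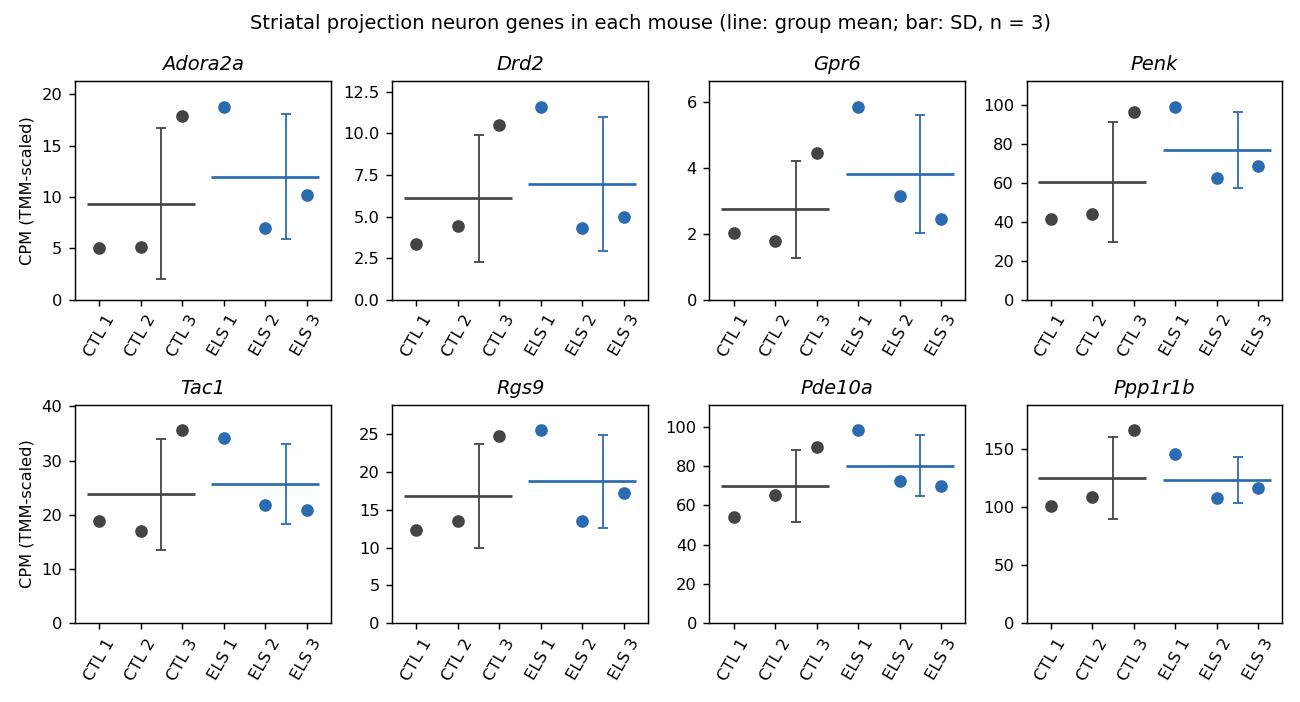
CPM (vertical axis, TMM-scaled, from 0) of each member in each mouse, with control mice in black and ELS mice in blue; horizontal lines are group means and bars SDs over 3 mice. In every panel control mouse 3 and ELS mouse 1 hold the 2 highest points, 1 in each group.

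Of the 8 members 0 passed both thresholds, against 0.0152% of all genes tested. None had an unadjusted p under 0.05 in edgeR either, against 4.23% of genes, and DESeq2 also called 0 members, with 0 at an unadjusted p under 0.05, against 0.137% and 3.72% of genes. The groups overlapped in every member, while they were apart in 8.28% of genes, 3.81% with ELS mice higher and 4.47% with ELS mice lower. Of the 8, 7 had a log2 fold change above 0, against 47.5% of all genes tested. Their median was 0.20, with a range from -0.02 to 0.48, and the median over all genes tested was 0.00. As the same 2 mice were high in each member, these 7 are not separate pieces of evidence.

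The outcome turned on control mouse 3. Without this mouse, all 8 members were higher in ELS mice with an unadjusted p under 0.05, a level reached by 11.7% of the 13212 genes then tested. Penk, at a log2 fold change of 0.85 (standard error 0.139), was called with an adjusted p of 0.0206 in that edgeR fit, in which 0.219% of genes were called. The other 7 had log2 fold changes from 0.23 for Ppp1r1b to 1.23 for Adora2a and adjusted p from 0.133 to 0.38. Without ELS mouse 1 no member differed beyond the spread between mice: the log2 fold changes ran from -0.40 for Drd2 to 0.12 for Penk, 5 of 8 were below 0, 0 were called and 0 had an unadjusted p under 0.05, against 0.00757% and 3.53% of genes. The labels give no reason to leave out either mouse. Both were singled out by their values in these same members. Control mouse 3 was the highest control mouse in each member, so leaving it out had to raise every fold change. The p values, calls and shares without it describe the dependence on 1 mouse and test no group difference.

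**Figure D2:**
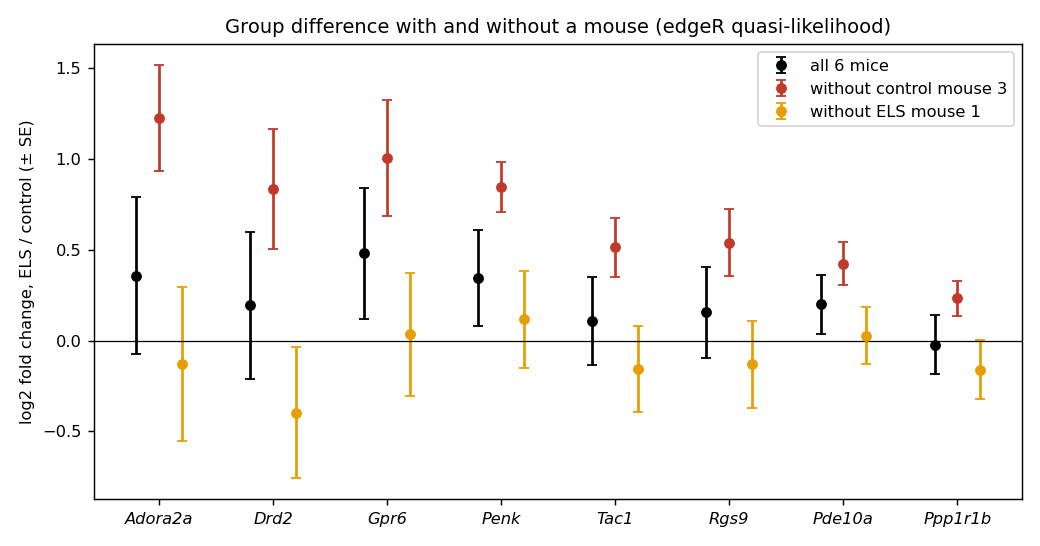
Log2 fold change of ELS over control mice with its standard error (vertical axis) for each member, from edgeR fits to all 6 mice (black), without control mouse 3 (red) and without ELS mouse 1 (orange). Every red point lies above 0 and every orange point lies below its black one, so 1 mouse on either side moved all 8 genes.

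The members differed in how much they varied. The distance from the lowest to the highest mouse on the log2 CPM scale was 1.89 for Adora2a, 1.76 for Drd2 and 1.69 for Gpr6, then 1.26 for Penk, 1.06 for Tac1 and 1.05 for Rgs9, and 0.85 for Pde10a and 0.72 for Ppp1r1b. The 3 receptors of the indirect pathway thus spanned the most. The median range was 1.16 for the members and 0.30 over all genes tested, and 99.9% of genes tested spanned no more than Adora2a, 92.1% no more than Ppp1r1b. These values chose the genes and test nothing. The spread was also there within groups: the highest of the 3 control mice was 1.64-fold to 3.54-fold above the lowest, and the highest of the 3 ELS mice 1.35-fold to 2.71-fold.

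**Figure D3:**
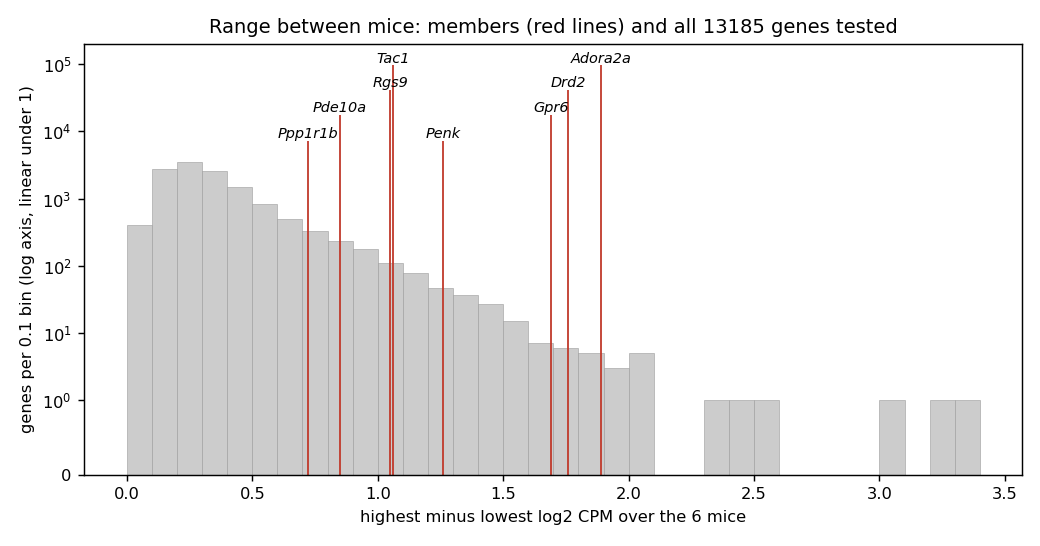
Histogram of the distance between the highest and the lowest mouse in log2 CPM for all 13185 genes tested (horizontal axis, 0.1 wide bins; vertical axis genes per bin on a log scale), with a red line for each member. All red lines lie to the right of the bulk of genes, from Ppp1r1b at 0.72 to Adora2a at 1.89.

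Centred on each gene's own mean over the 6 mice, the median of the members was -0.51, -0.43 and 0.56 in the controls and 0.59, -0.15 and -0.07 in the ELS mice (log2 CPM). Control mice 1 and 2 were below the mean in all 8 members, and control mouse 3 and ELS mouse 1 were above it in all 8. ELS mice 2 and 3 lay between, above the mean in 1 and 3 members. Control mice 1 and 2 were the 2 lowest mice in 6 of the 8, against 11.6% of all genes tested. This share only describes the members, since the 2 mice were picked by their values in these same genes. The exceptions were Drd2 and Ppp1r1b, where ELS mouse 2 was below control mouse 2, for Ppp1r1b by less than the rounding of the values above. Among the 6, Rgs9 also rested on a difference between these mice smaller than that rounding. Tac1, Rgs9 and Penk followed the median profile most closely, within a root-mean-square difference of 0.0928, 0.0931 and 0.106, and Adora2a the least, at 0.345, with its wider swings.

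Ordered by level per length, the genes ran differently from their order by variation. Ppp1r1b and Penk were the highest, at 42.4 ± 8.77 and 42.2 ± 15.2 CPM per kb of exon (SD, n = 6 mice). They did not differ beyond their spread, since Ppp1r1b was above Penk in only 2 of the 6 mice. Tac1 at 7.27 ± 2.37 was above Pde10a at 5.83 ± 1.26 in 5 of 6 mice. Adora2a followed at 3.48 ± 2.03, Rgs9 at 2.78 ± 0.923, Drd2 at 2.56 ± 1.40 and Gpr6 at 1.84 ± 0.886 CPM per kb, where each was within the SD of the next. Adora2a was above Rgs9 in 4, Rgs9 above Drd2 in 4 and Drd2 above Gpr6 in 5 of the 6 mice.

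Ratios within a mouse show how far members kept proportion. The log2 ratio of Drd2 to Adora2a was -0.58, -0.22 and -0.77 in control mice and -0.69, -0.70 and -1.03 in ELS mice, a 1.75-fold span where each gene alone spanned more than 3-fold. Pde10a and Ppp1r1b kept less proportion with Adora2a, with spans of 2.51-fold and 2.71-fold. The log2 ratio of Ppp1r1b to Adora2a was 4.32, 4.39 and 3.22 in control mice and 2.95, 3.95 and 3.52 in ELS mice, lowest in the mice with most Adora2a. The log2 ratio of Tac1 (direct pathway) to Penk (indirect pathway) was -1.14, -1.38 and -1.44 in control mice and -1.54, -1.53 and -1.72 in ELS mice. It was lower in each ELS mouse than in each control mouse, the only 1 of 8 ratios whose groups did not overlap. The other ratios all had Adora2a as denominator, so the 8 were not separate chances. No test was made, and no share over all ratios of genes was computed. For single genes, an unlike measure, the groups were apart in 8.28% of those tested. Cortical interneurons also make Tac1 and Penk, so the ratio need not stand for the pathways alone.

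A list of 33 other striatal projection neuron genes held 32 with a row, of which 27 were tested. None was called and none had an unadjusted p under 0.05, against 4.23% of all genes; 19 of 27 had a log2 fold change above 0, with a median of 0.06. Without control mouse 3, 7 of them had an unadjusted p under 0.05 and 0 were called, against 11.7% and 0.219% of all genes, with a median of 0.11. Without ELS mouse 1, 0 had an unadjusted p under 0.05, against 3.53%, and the median was -0.03. In 13 of the 27, control mouse 3 and ELS mouse 1 were the 2 highest mice, against 14% of all genes tested. The 32 genes with a row summed to 1880, 1910 and 2080 CPM in control mice and 2150, 1980 and 1950 CPM in ELS mice. Syndig1l had 7.18, 7.22 and 16.9 CPM in control mice and 16.7, 8.58 and 11.8 CPM in ELS mice. Lrrc10b had 5.62, 7.65 and 15.3 CPM in control mice and 14.2, 6.95 and 9.21 CPM in ELS mice. Both share the pattern of the members, and so does Serpina9, which had the widest range of the list, 3.33 on the log2 scale, from 0.39 CPM in control mouse 2 to 4.5 CPM in ELS mouse 1.

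Other genes of this list varied little, and 14 of the 27 spanned less than 0.35 on the log2 scale. How much of their level came from cortical cells was not tested. The examples that follow were chosen after their values were seen. Adcy5, the main striatal adenylyl cyclase, had 189 to 193 CPM in control mice and 197 to 203 CPM in ELS mice; its groups did not overlap. The same held for Gnal and Meis2, so for 3 of the 27 in that direction, against 3.81% of all genes. Chrm4, a muscarinic acetylcholine receptor gene of direct pathway neurons, had 17.6 to 18.9 CPM in control mice and 16.7 to 19.2 CPM in ELS mice. Below the filter, which used CPM before TMM scaling, was the transcription factor gene Six3. It had 0.292, 0.248 and 2.69 CPM in control mice and 2.28, 1 and 1.49 CPM in ELS mice, with control mouse 3 and ELS mouse 1 highest.

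**Figure D4:**
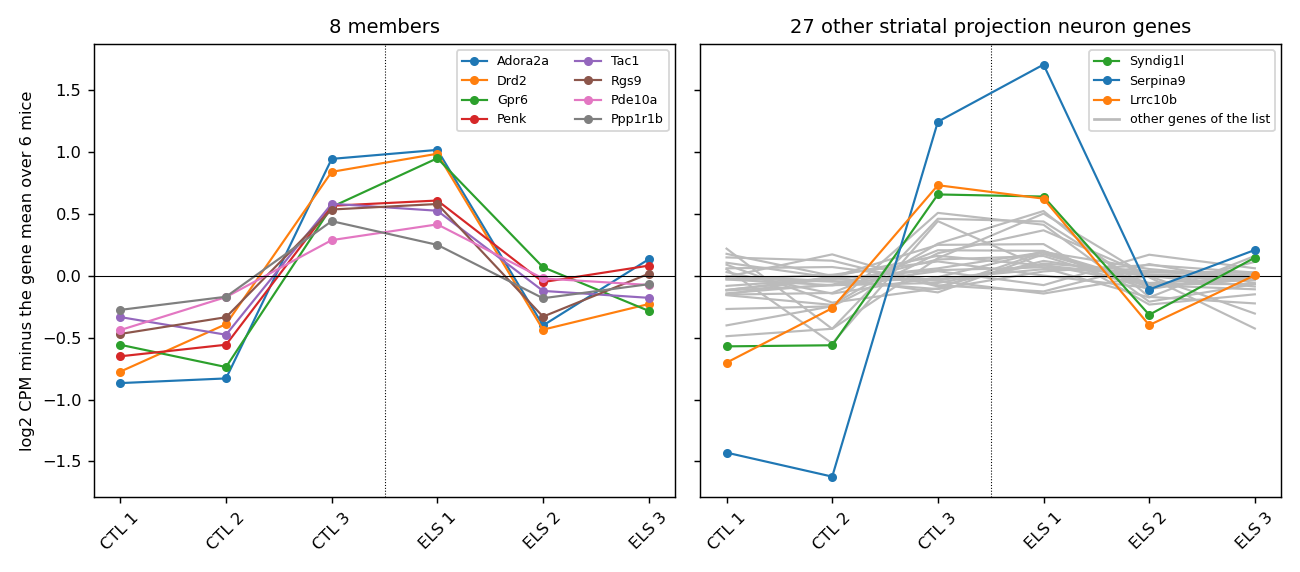
Log2 CPM of each gene minus its mean over the 6 mice (vertical axis) by mouse (horizontal axis) for the 8 members (left) and 27 other striatal projection neuron genes (right); lines join the points of a gene and imply no order of mice. The members peak in control mouse 3 and ELS mouse 1, as do Serpina9, Lrrc10b and Syndig1l on the right, and most of the grey lines, the other genes of the list, stay close to 0.

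The 10 genes most like the members, of 13177 ranked by the root-mean-square difference from the median profile over 6 mice, differed from it by 0.109 to 0.179 on the log2 scale, where the median gene differed by 0.449. Among them were Rxrg, Syndig1l, the row named Drd, Casp12, Kcna5, Toporsos, Lrrc10b, Hba-a2 and Tmem107. Of the 10, 4 belong to the list of other striatal genes, Rxrg, Syndig1l and Lrrc10b among them. Rxrg, a retinoid X receptor and the closest, had 6.01, 6.27 and 11.7 CPM in control mice and 11.5, 7.89 and 9.15 CPM in ELS mice. The row named Drd had 16.1, 14.8 and 25.9 CPM in control mice and 32, 17.2 and 16.7 CPM in ELS mice. Hba-a2, with 2.21 to 3.74 CPM in control and 1.97 to 4.14 CPM in ELS mice, is a hemoglobin gene that shares most of its sequence with Hba-a1, so its counts are uncertain.

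In the wider signalling pathway of dopamine, adenosine and cyclic AMP, 33 of 34 genes were tested and none was called. The median log2 fold change was 0.01, and 3 of 33 had an unadjusted p under 0.05, against 4.23% of all genes. Without control mouse 3 that number was 10 of 33, of which 3 were higher in ELS mice, against 11.7% of all genes, and without ELS mouse 1 it was 2 of 33, against 3.53%; 0 were called either way. Drd5, a dopamine receptor that raises cyclic AMP, spanned the most of the 33 genes tested, with 3.25, 2.94 and 3.95 CPM in control mice and 4.2, 4.6 and 3.91 CPM in ELS mice. The adenylyl cyclase genes Adcy1 and Adcy9 were at their lowest in ELS mouse 1, with 969 and 40.4 CPM, against 1060 to 1360 and 53 to 57.6 CPM in control mice. Drd4, which was below the filter and spanned more, was at most 0.651 CPM. In 6 of the 33 genes control mouse 3 and ELS mouse 1 were highest, against 14% of all genes. The sums of the list were lowest in these mice, at 11200 and 11100 CPM, against 11300 to 11700 CPM in the other mice.

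Of 8 receptors and processing enzymes of the enkephalin and tachykinin peptides, 7 were tested and none was called, with log2 fold changes from -0.19 to 0.17 and 0 at an unadjusted p under 0.05, against 4.23% of all genes. Without control mouse 3, 2 of 8 had an unadjusted p under 0.05, both lower in ELS mice, against 11.7%, and without ELS mouse 1, 0 of 7 did, against 3.53%. Oprd1, the delta opioid receptor that enkephalins bind, had 24.7, 23.6 and 17.1 CPM in control mice and 15.4, 20.9 and 20.9 CPM in ELS mice, lowest in the 2 mice in which Penk was highest. The tachykinin receptor Tacr1 had 1.2, 1.56 and 2.41 CPM in control mice and 2.25, 1.89 and 1.52 CPM in ELS mice, highest in those mice, and 2 of the 7 shared that order. Tacr3 ran from 0.455 to 1.88 CPM with no such order.

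Markers of other cells and regions were read beside these values. Summed over all 8 members, the level was 238, 260 and 445 CPM in control mice and 438, 293 and 311 CPM in ELS mice. All 5 cholinergic interneuron genes of the striatum were highest in control mouse 3 and ELS mouse 1, although low: they summed to 1.59, 2.41 and 5.73 CPM in control mice and 5.16, 2.4 and 1.64 CPM in ELS mice. Chat, which encodes the enzyme that makes acetylcholine, was at 0.155 to 1.01 CPM, and the choline transporter gene Slc5a7 at 1.01 to 3.67 CPM. The cortical projection neuron list, most of whose sum is Slc17a7, had its lowest sums in these 2 mice, with 2600, 2520 and 2270 CPM in control mice and 2280, 2580 and 2430 CPM in ELS mice. Of its 10 genes, 5 were lowest in both mice, such as Rorb, a layer 4 marker, at 47.4 CPM in ELS mouse 1 and 52 CPM in control mouse 3, while Emx1, named after its values were seen, was highest in them, at 24.3 and 25.8 CPM.

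Oligodendrocyte genes were also highest in these 2 mice for 6 of 7, with sums of 6180 to 8120 CPM in control mice and 6220 to 7200 CPM in ELS mice, and Mbp at 3720 CPM in control mouse 3. Hemoglobin and other blood genes were highest there for 4 of 5, with sums of 51 to 85.2 and 52.6 to 79.7 CPM. Of the 5 ependymal genes, 3 were highest in these mice, with sums of 11.5 to 16.8 and 9.58 to 17.5 CPM. These 3 were Ccdc153, at 2.51 and 2.82 CPM in control mouse 3 and ELS mouse 1, Tmem212 and Rarres2, the last 2 named after their values were seen. Foxj1, the transcription factor gene of ciliated cells, had 6.08 and 5.67 CPM in them and 5.91 CPM in control mouse 2. Cortical interneuron genes summed to 1100 to 1180 CPM in control and 1120 to 1190 CPM in ELS mice, with Gad1 at 271 to 286 CPM and Lhx6 at 12.7 to 18.4 CPM. The part of any of these cells or regions in the levels of the members was not tested.

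**Figure D5:**
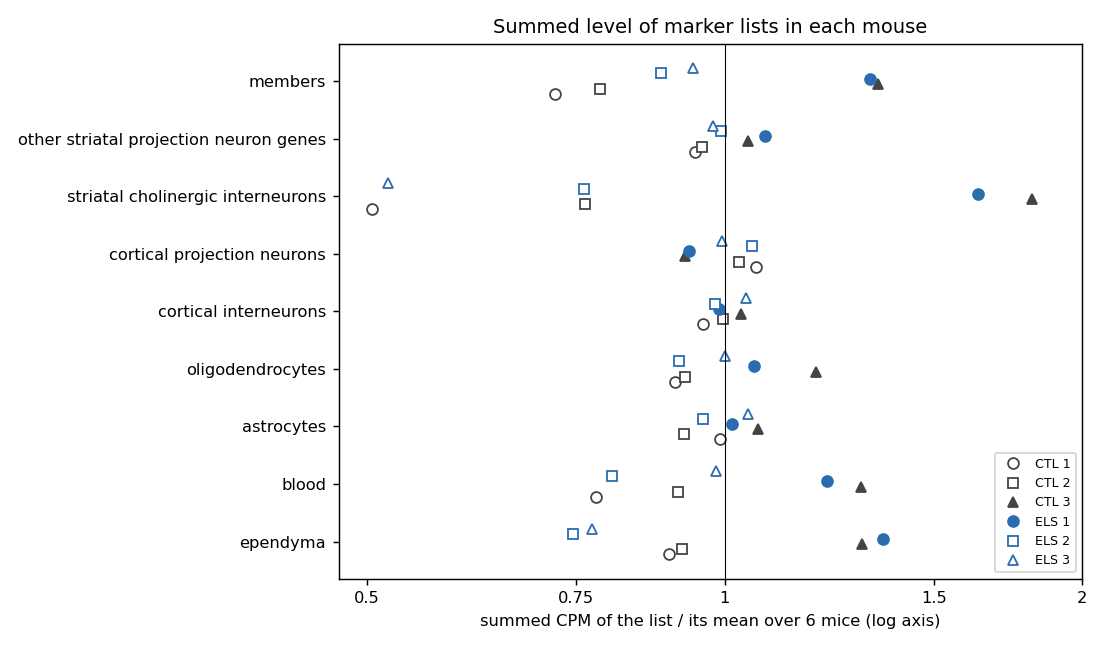
Summed CPM of each marker list divided by its mean over the 6 mice (horizontal log axis) with 1 symbol per mouse; filled symbols are control mouse 3 (black) and ELS mouse 1 (blue). The filled symbols are to the right for the members, cholinergic interneurons, oligodendrocytes, blood and ependyma, and to the left for cortical projection neurons.

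The remaining lists were read for the same 2 mice. Septum genes (4 tested, Zic1 at 12.1 to 20.6 and Zic4 at 1.88 to 3.63 CPM) and genes of the claustrum and endopiriform nucleus (5 tested, Nr4a2 at 17.8 to 28.4 CPM) had control mouse 3 and ELS mouse 1 highest in 0. Nr4a2 had a log2 fold change of -0.24, whereas the other 4 claustrum genes were above 0. Gnb4 at 0.23 and Oprk1 at 0.31, named after their values were seen, were higher in each ELS mouse than in each control mouse. So were 3.81% of all genes. The sums of the list were 266 to 294 CPM in control and 303 to 306 CPM in ELS mice. Most of each sum was Synpr, also named after its values were seen. Its groups overlapped, at 159 to 194 CPM in control and 188 to 197 CPM in ELS mice. Neuroblast genes had control mouse 3 and ELS mouse 1 highest in 2 of 6, with Dcx at 22.2 to 35.3 CPM. All 6 had a log2 fold change above 0, and their sums were 79.5 to 89.1 CPM in control and 90.3 to 99.2 CPM in ELS mice. Igfbpl1 had the lowest adjusted p of any listed gene, 0.66 in the edgeR test. Choroid plexus genes were low (sums of 3.75 to 6.15 CPM, Ttr at most 0.65 and Kcnj13 at most 1.6 CPM), with these mice highest in 1 of 7. Astrocyte genes (Aqp4 at 141 to 161 and Gfap at 107 to 134 CPM) had them highest in 1 of 5, microglial genes (Cx3cr1 at 60.6 to 72.4 and Aif1 at 5.65 to 8.47 CPM) in 2 of 5, and endothelial genes (Cldn5 at 27.9 to 42.8 CPM) in 0 of 3. With all 6 mice, 0 genes of the cell type and region lists were called. An unadjusted p under 0.05 was found for 3 of 6 neuroblast, 2 of 5 claustrum, 1 of 4 septum, 1 of 3 endothelial and 1 of 10 cortical interneuron genes, all higher in ELS mice, against 4.23% of all genes, and for 0 in the other cell lists. Without control mouse 3 these were 2 neuroblast, 4 claustrum, 0 septum and 1 endothelial gene, with 1 cortical interneuron gene that was lower in ELS mice and 1 of the 4 claustrum genes, Nr4a2, also lower. There were then also 5 of 10 cortical projection neuron genes, of which 1 was higher in ELS mice, 1 choroid plexus gene and 1 blood gene, against 11.7% of all genes, and Nr4a2 was called. Without ELS mouse 1 these were 2 neuroblast, 2 claustrum, 0 septum, 1 endothelial, 1 cortical interneuron, 2 cortical projection neuron, 1 ependymal and 1 blood gene, the last 2 and 1 of the cortical projection neuron genes lower in ELS mice and the others higher, against 3.53% of all genes, and 0 were called.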

How the data were processed

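Reads of the PFC libraries had been trimmed (Trimmomatic), mapped to mm10 (STAR, 2.7.1a per the labels' processing notes, another version per the paper's methods) and assigned to genes (HTSeq 0.9.1). The counts deposited by the authors are whole reads for each gene symbol, without normalization or pooling. The annotation release and strand setting are not given in the sources used here, and the labels and the paper name different mRNA kits. Columns named for social isolation were given to ELS mice of the same number.

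Of 22000 symbols, 19583 (89%) matched a single gene of GENCODE M21 (GRCm38), which gave positions and exon lengths. Counts were analysed with R 4.3.3 and edgeR 4.0.16: a minimum of 1 CPM in each mouse of either group, TMM scaling (factors 0.992 to 1.021), a quasi-likelihood fit with group as the only term, and Benjamini-Hochberg adjustment over all genes tested. The F statistic gave the standard errors. Log2 CPM values used a prior count of 2. Alternatives used DESeq2 1.42.0, limma 3.58.1, other scalings and filters, a block for replicate number, and fits with 1 mouse fewer. No libraries of a group agreed within counting noise (chi-square per degree of freedom of at least 6.7), so none was treated as deposited more than once. Counting error was at most 14.1% for the members. An exact permutation of 3 against 3 cannot give a p below 0.1. The members and lists were chosen with earlier results of these data known. Genes named are the members, the first gene and the most variable tested genes of each list (3 for the striatal, signalling and peptide lists, 1 for cell types), and the 10 genes nearest to the members' profile. Others are said to be chosen after their values were seen. A gene that this rule names is not reported here.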

Additional observations from a re-analysis of the deposited data

How the results depend on the processing

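With all 6 mice, 0 members passed both thresholds under DESeq2, the likelihood ratio test, limma-voom, the other scalings, the other filters and the replicate block. Over all genes tested the count was 2 with the quasi-likelihood test, 18 with DESeq2, 28 with the likelihood ratio test, 4 when every gene with a read was tested, 7 with the replicate block, and 1 to 29 with a mouse left out. The 29 came without control mouse 3; the cause of these shifts was not tested. Of the listed genes, 0 were called, but 1 (Igfbpl1) with the likelihood ratio test. Igfbpl1 had passed the filter through the ELS mice alone. With a mouse left out, 0 to 1 were called (Nr4a2, lower in ELS mice, without control mouse 3). Members called ran from 0 to 1 in those fits, the 1 being Penk without control mouse 3. The median log2 fold change of the members ran from -0.13 without ELS mouse 1 to 0.69 without control mouse 3.

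The fold changes of single members changed sign when a mouse was left out, running from -0.13 to 1.23 for Adora2a, -0.40 to 0.83 for Drd2, -0.13 to 0.54 for Rgs9, -0.16 to 0.51 for Tac1 and -0.16 to 0.23 for Ppp1r1b. Ppp1r1b also turned positive with limma-voom (0.00135) and with the replicate block (0.000382). Penk, Gpr6 and Pde10a stayed above 0 in all 15 alternatives. The median range between mice stayed between 1.11 and 1.2 in all 10 alternatives.

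The same-numbered mice are different animals, and their deviations had correlations of -0.123, 0.213 and -0.0312 for numbers 1 to 3, so the numbers were not taken to pair the mice. The replicate block called 0 members and 7 genes over all.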
